A study of Mus musculus with 2 samples.

Results

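Exocytosis is the fusion of a vesicle with the plasma membrane, and in β cells it releases insulin from secretory granules. Binding of the transcription factor Rfx6 was examined here at 58 genes of the fusion machinery, chosen by name as listed SNARE, synaptotagmin, Rab and active-zone genes. They were 58 of the 22367 protein-coding genes of the GENCODE M1 annotation on mm9, the mouse genome build of the peak list. Symbols absent from that annotation had been dropped when the list was made. A peak was assigned to a gene when its summit, the base with the most reads, lay in the gene or within 50 kb of either end, and distances of 10 kb from the gene start and 1 kb from a transcript start were counted as well. The members lay on 18 autosomes, with 8 on chromosome 7.

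SNARE proteins on the vesicle (the Vamp family) and on the target membrane (syntaxins and the Snap25 family) zip into a complex that pulls both membranes together. Synaptotagmins and Doc2 proteins sense calcium or help to position the granule, Munc13, CAPS and complexin proteins prepare and clamp the complex, and Nsf with α-SNAP (Napa) takes it apart for reuse. Rab3 and Rab27 with their effectors tether granules to the cell cortex, and large scaffolds such as Bassoon and Piccolo organise release sites. Rfx proteins recognise the X-box, an imperfect inverted repeat whose left arm resembles GTTGCC and whose right arm resembles GGCAAC, a few bases apart.

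The measurement was anti-HA ChIP-seq (antibody 12CA5) of the mouse β cell line Min6B1, into which 24 µg of a CMV-driven plasmid encoding 3HA-Rfx6 (Rfx6 with an HA tag) had been transfected 2 days before harvest. The same antibody was used on the control, labelled as Min6b1 cells. The label text on cell growth describes the same transfection for both libraries, so what the control cells received is not clear from it, and the tagged protein was overexpressed. There was 1 library of each, so no value below has a replicate error, and the data hold no expression levels, so the cell type was not checked against markers. The caller kept 33949757 of 49443917 reads of the 3HA-Rfx6 library (68.7%) and 3567375 of 16911298 reads of the control (21.1%), so 9.52 times as many reads remained for the 3HA-Rfx6 library. Peaks were called against this shallower control, and how far each fold enrichment rested on it was not tested.

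The sequences below show the X-boxes at summits of members, and each was chosen because it lies at a peak described in the text. They are read 5′ to 3′ from mm9, with the X-box in capitals. A strict X-box opened with the arm GTNACC or its variant GTNGCC, went on with 0 to 3 free bases and closed with the arm AGCAAC, its variant AGTAAC, the arm GGCAAC or its variant GGTAAC, on either strand, in the 200 bp around a summit. A near X-box had the arm GTTGCC followed after 1 to 3 free bases by the arm GGCAAC, with at most 2 mismatches in those 12 bases. The Syt5 promoter held 3 X-boxes next to its summit, of which 2 were strict, and the stretch chr7:4498226-4498346 is shown on the minus strand, the strand of the gene.
Syt5, promoter: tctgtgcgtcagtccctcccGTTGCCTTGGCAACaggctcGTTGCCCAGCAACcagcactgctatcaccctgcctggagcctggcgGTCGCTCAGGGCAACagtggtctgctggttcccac
The near X-boxes at the starts of Doc2a (chr7:133991094-133991123, plus strand, in the untranslated exon 1) and Stx1a (chr5:135500043-135500095, plus strand, in intron 1) are shown to set beside it.
Doc2a, exon 1: aaaccagcGTCGCTATGGCAACcaggccgg
Stx1a, intron 1: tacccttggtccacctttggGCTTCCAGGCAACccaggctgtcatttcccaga
Some of the strict X-boxes outside the members' promoter peaks are shown too, and those near Syt4, Rab3a and Vamp2 are not. The ones shown lay upstream of Syt7 (chr19:10460123-10460175, plus) and Syt17 (chr7:125590937-125590990, minus), in intron 2 of Rab3b (chr4:108565776-108565828, plus), in intron 6 of Cadps (chr14:13402215-13402269, minus) and downstream of Syt3 (chr7:51684760-51684813, plus), the last in a peak of 40 reads 0.433 kb from a start of Lrrc4b. The Syt17 site meets the strict form when read on the strand opposite to the one printed.
Syt7, upstream: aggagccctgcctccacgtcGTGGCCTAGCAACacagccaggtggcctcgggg
Syt17, upstream: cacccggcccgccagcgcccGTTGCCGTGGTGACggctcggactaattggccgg
Rab3b, intron 2: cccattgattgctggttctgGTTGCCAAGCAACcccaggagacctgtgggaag
Cadps, intron 6: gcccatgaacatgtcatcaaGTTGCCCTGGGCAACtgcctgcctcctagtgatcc
Syt3, downstream: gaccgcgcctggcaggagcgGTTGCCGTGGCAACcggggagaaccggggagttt
The sites of Syt5 (the leftmost), Cadps and Syt3 matched both arms of the near X-box with 0 mismatches.

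To learn how often Rfx6 peaks lay near exocytosis genes, genes with a summit were counted. Of the 58 genes, 51 (87.9%, 95% Wilson interval 77.1 to 94.0) had a summit within 50 kb, against 67.8% of all protein-coding genes and 69.9% of autosomal ones. A summit lay within 10 kb of the start of 25 genes (43.1%, 31.2 to 55.9), against 35.7% of all genes, and within 1 kb of a protein-coding transcript start, here called a promoter peak, of 21 genes (36.2%, 25.1 to 49.1), against 22.6%. The interval for 10 kb held the share of all genes, and those for 50 kb and 1 kb did not. These intervals cover counting error only, over a list chosen with earlier results of these data known. With 1 library no test of these differences was made, and an interval that leaves out the share of all genes is not one. Summits inside the gene were found for 33 members (56.9%), against 31.3% of all genes. Summits whose nearest protein-coding start was the member's own were found for 39 (67.2%), against 42.0%. Neither of these last shares was set against genes of similar length, although the members were longer (median 62.9 kb against 15.4 kb).

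Exocytosis genes are long, with a median of 62.9 kb against 15.4 kb for all protein-coding genes, and a long gene covers more ground in which a summit can fall. Had each member carried a summit as often as all genes of its length class, 42.7 members (73.6%) would have had one within 50 kb, 22.3 (38.5%) within 10 kb of the start and 16.8 (29.0%) a promoter peak. The intervals of the members' shares held the values for 10 kb and for promoter peaks and lay above that for 50 kb. The class shares include genes of the X and Y chromosomes, whereas all members are autosomal. Over all lengths, leaving those genes out raised the 50 kb share from 67.8% to 69.9%. Class shares of autosomal genes alone were not computed, so the 73.6% may be too low a value for these members. The length classes did not behave alike. Within 50 kb, 12 of 13 members under 20 kb had a summit, against 61.5% of all genes of that class. The shares were 13 of 14 against 74.9% from 20 to 60 kb, and 17 of 18 against 77.3% from 60 to 200 kb. Above 200 kb the order turned, with 9 of 13 members against 79.4%. Promoter peaks were found at 3 of 13, 7 of 14, 7 of 18 and 4 of 13 members in these classes, against 16.5%, 27.8%, 33.2% and 37.0% of all genes. Per 100 kb searched, members under 20 kb had a median of 3.64 summits against 0.968 for their class. The medians were 2.04 against 1.42 from 20 to 60 kb, 1.42 against 1.03 from 60 to 200 kb and 0.362 against 0.538 above 200 kb. The short members also had a median of 4 other gene starts in the searched span against 3, and the part of this in the count was not tested.

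**Figure D1:**
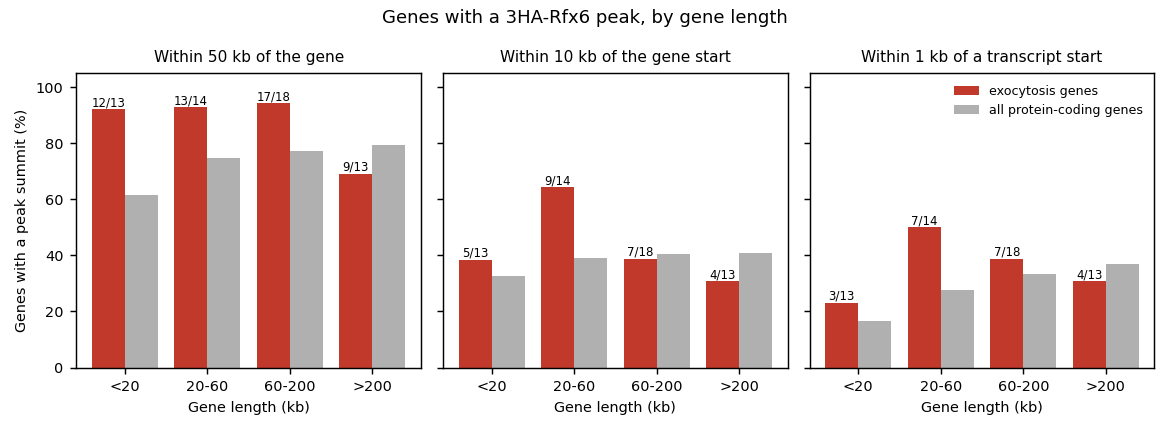
Percent of genes (y axis) with a 3HA-Rfx6 peak summit in each class of gene length (x axis, kb), for the exocytosis genes (red, with counts) and all protein-coding genes (grey), under 3 distance rules. Within 50 kb, the red bar is above the grey one in each class up to 200 kb and below it above 200 kb (9 of 13 against 79.4%).

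The 51 genes had 226 distinct peaks, and 4 of these were counted for both Doc2b and Rph3al, which are neighbours on chromosome 11. The nearest protein-coding start belonged to a member for 106 peaks and to another gene for 120. The peaks were of ordinary height, which here and below means the count of reads over the called peak, whatever its width. Their median was 73 reads (34 to 695) and their median fold enrichment 8.37 (3.59 to 71.3). All 23308 peaks had medians of 73 reads and 8.54. Of the 226, 23 (10.2%) were among the top 10% of all peaks by reads, a class that held 10.1% of all peaks because of ties. By place, 55 summits (24.3%) lay within 1 kb of the start of any gene against 21.0% of all peaks, 37.6% lay in introns against 38.1%, and 30.5% lay between genes against 36.1%. Of the 73 peaks inside members, 61 were in introns, 28 of them in intron 1, 9 in untranslated exons and 3 in coding exons.

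**Figure D2:**
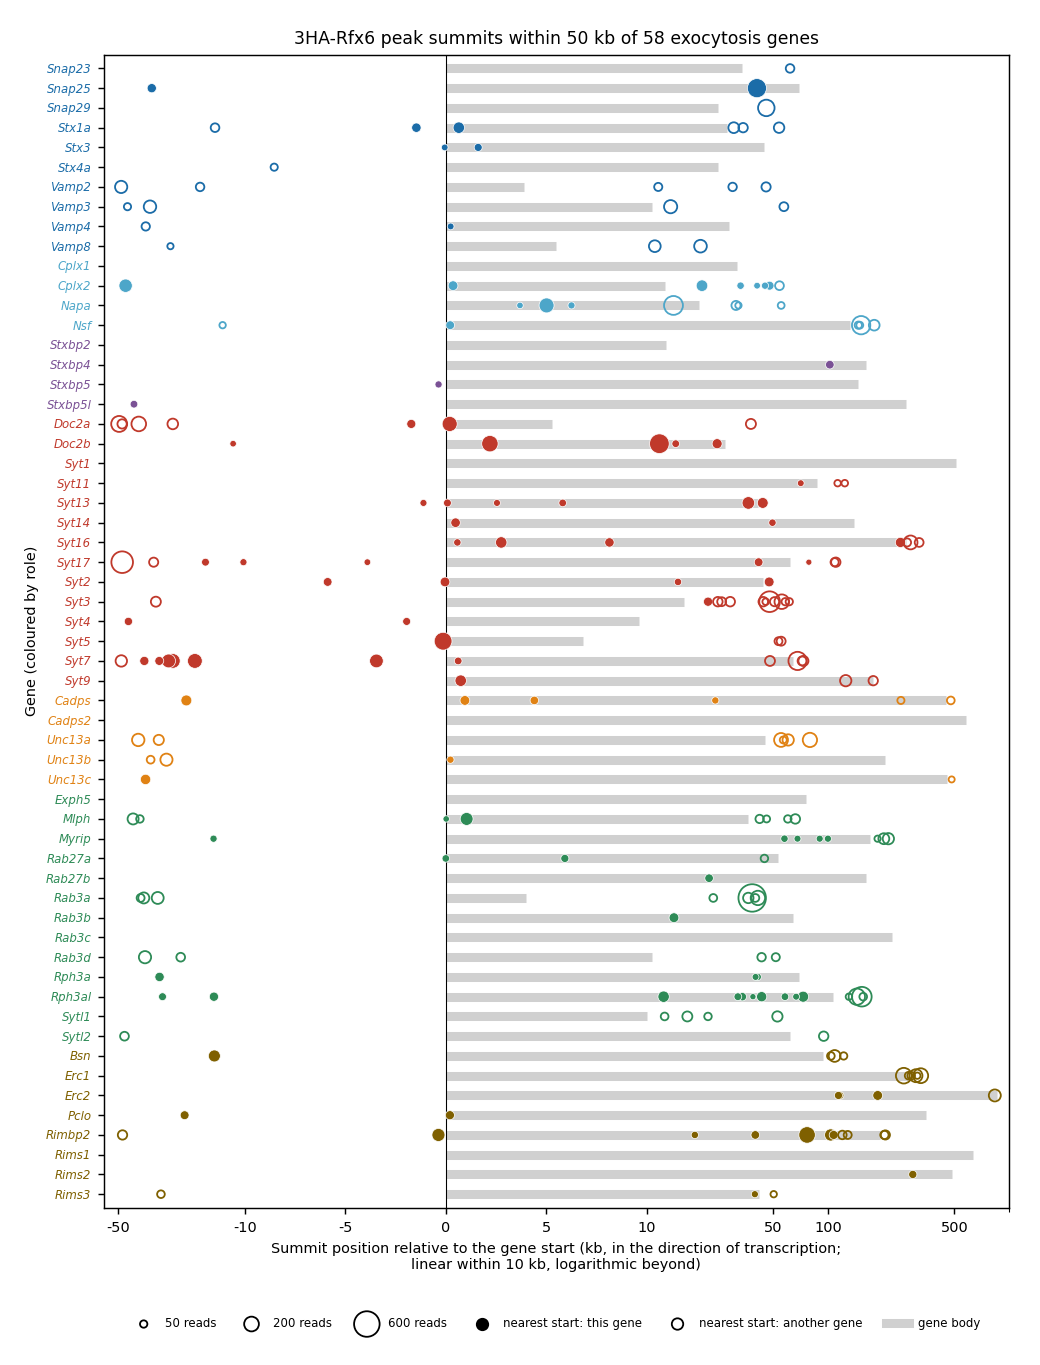
Position of each of the summits within 50 kb of the 58 genes relative to the gene start (x axis, kb along transcription, linear to 10 kb and logarithmic beyond), 1 gene per row, coloured by role, with circle area proportional to reads and the gene body in grey. Filled circles have the member's start as the nearest protein-coding start (106 distinct peaks) and open circles another gene's (120). The rows of Cplx1, Stxbp2, Syt1, Cadps2, Exph5, Rab3c and Rims1 are empty.

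At the starts themselves, 21 genes had a promoter peak. Syt5, a calcium-binding synaptotagmin found on dense-core granules, had the highest, with 291 reads (95% Poisson interval 259 to 326) and a fold enrichment of 53.0, its summit 137 bp before the start. Doc2a, a calcium sensor with C2 domains, followed with 208 reads (181 to 238) and a fold of 39.1 on its untranslated exon 1, 53 bp after the nearest transcript start. Rimbp2, which links RIM scaffolds to calcium channels, had 156 reads (132 to 182) and a fold of 23.1, its summit 368 bp before the start. The next in fold was Stx1a, the plasma membrane syntaxin of insulin granule fusion, with 120 reads (99.5 to 143) and a fold of 16.7 in intron 1, 645 bp after the start. Syt9, a calcium sensor, also had 121 reads, with a fold of 9.89.

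The other 16 promoter peaks held 38 to 119 reads, with folds of 5.18 to 13.2. Their highest by reads was that of Rph3al (Noc2, a Rab3 and Rab27 effector), at 119 reads and 168 bp before an alternative start. It was followed by Cadps (CAPS1, a priming factor) and Cplx2 (complexin 2) with 87 reads each, Syt2 with 86, Syt14 with 83, Pclo (Piccolo) with 76 and Nsf with 71. Syt13 had 56 reads, Syt7 54, Rab27a 52, Syt16 50, Unc13b (Munc13-2) 48, Stxbp5 (tomosyn) 47, Vamp4 42, Stx3 41 and Mlph (melanophilin) 38. Over the 21 peaks the summit lay 2 to 947 bp from the start with a median of 202 bp, 13 of them within 250 bp. It lay after the start at 13 genes and before it at 8. The GC content of these peaks had a median of 66% against 64.5% for all peaks within 1 kb of a start, whose median was 82 reads. The promoter peak was the gene's highest within 50 kb for 6 genes, so for the other 15 the highest lay elsewhere.

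**Figure D3:**
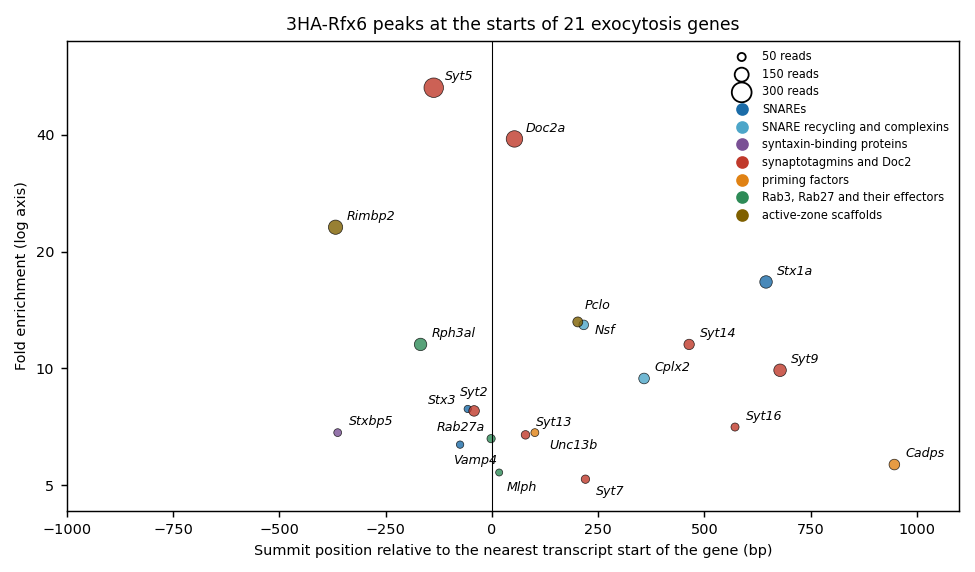
Fold enrichment (y axis, logarithmic) of the peaks within 1 kb of a start against the summit position relative to the nearest transcript start (x axis, bp), 1 circle per gene, coloured by role, with area proportional to reads. Syt5 (53.0), Doc2a (39.1) and Rimbp2 (23.1) lie above the other 18, and 13 summits lie to the right of the start.

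Of the 14 synaptotagmin and Doc2 genes, 13 had a peak in the 50 kb span, 11 had one at most 10 kb from the start and 8 had a promoter peak, beside 67.8%, 35.7% and 22.6% of all genes and with no test made. They held 75 of the 226 peaks, 41 of them nearest to a member's own start. Among the other 44 members, 14 had a summit within 10 kb of the start and 13 a promoter peak. The family was not alike outside the member list. Syt6, Syt8, Syt10, Syt12 and Syt15, from a second list counted below, had 1, 0, 0, 3 and 2 summits within 50 kb. Only Syt12 of these had a summit within 10 kb of the start, and none had a promoter peak. Syt7, a high-affinity calcium sensor of insulin secretion, had 12 summits. A series upstream of its start held 172, 200, 199 and 176 reads at 3.45, 18.9, 25.0 and 26.4 kb, with folds of 24.3 to 29.4, all nearest to the Syt7 start. The peak at 3.45 kb held the strict X-box shown above. A higher peak of 306 reads (273 to 342) lay 3.93 kb downstream of Syt7, but 0.339 kb from the start of Lrrc10b.

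Doc2b, whose protein binds Munc13 and syntaxin and promotes insulin release, held 2 strong peaks in its body. The summit in intron 2 had 354 reads (318 to 393) and a fold of 20.7, and the summit in intron 1, 2.19 kb after the start, had 247 reads and a fold of 30.6. Both also counted for Rph3al, at 46.7 kb or less from its end. Syt13 had 6 summits, each nearest to its own start, from the promoter peak to 145 reads (fold 25.8) in intron 5 and 108 reads (fold 19.1) beyond its end. Syt4 had 2 peaks, of 58 and 63 reads at 1.95 and 44.0 kb upstream, and both held strict X-boxes.

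Syt3 also had 12 summits, but none inside the gene. Its highest, 393 reads (355 to 434), lay 31.6 kb downstream and 2.73 kb from the start of Lrrc4b. For Syt17 the highest peak, 430 reads (390 to 473), lay 47.6 kb upstream and 0.171 kb from the start of Itpripl2, while the peaks nearest to its own start held 34 to 70 reads. The highest near Doc2a, 234 reads, lay 49.5 kb upstream and 1.19 kb from a start of Aldoa. Syt16 had 4 summits in the gene, of 50 to 120 reads, and 177 reads downstream. Syt11 had 42 reads in its highest peak, the lowest such value among the 51 genes.

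Each of the 10 SNARE genes had a peak in the 50 kb span, 4 had one at most 10 kb from the start and 3 had a promoter peak, where 67.8%, 35.7% and 22.6% of all genes did. Snap25, the plasma membrane SNARE with 2 SNARE motifs, had the highest peak that lay in a SNARE gene, with 335 reads (300 to 373) and a fold of 40.5 in intron 1, 40.6 kb after the gene start. Stx1a had a second peak of 81 reads 1.47 kb before its start, and Stx3 had 59 reads in intron 1 and 41 at its promoter. Among the Vamp genes, Vamp4 had its promoter peak of 42 reads inside the gene and 64 reads upstream. Vamp2, Vamp3 and Vamp8 had highest peaks of 138, 160 and 148 reads, with no summit inside the gene, and each nearest to another gene's start (Aurkb, Per3 and Rnf181). Snap29 had a single summit, of 250 reads, 0.288 kb from the start of Crkl, and Snap23 a single one of 68 reads, 0.368 kb from Stard9. Stx4a likewise had 1 summit, of 48 reads, outside the gene. Of the 27 peaks near SNARE genes, 7 were nearest to a member's start.

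Among the genes that recycle or clamp the complex, Napa held 4 summits in its body. The highest had 328 reads (293 to 365) and a fold of 23.1 in intron 3, where the nearest start was that of Kptn, 7.41 kb away, and intron 1 held one of 206 reads with a fold of 22.8. Nsf, its partner, had 71 reads at its promoter and 309 reads (276 to 345) 20.5 kb beyond its end, the latter with a fold of 10.3 only and nearest to Wnt3. Cplx2 had 8 summits, 7 of them nearest to its own start. They reached 164 reads (140 to 191) 45.6 kb upstream and 123 reads 20.2 kb after the start. Cplx1 had none within 50 kb. Syntaxin-binding genes had the fewest. Stxbp4, Stxbp5l and Stxbp5 had 1 summit each, of 68, 54 and 47 reads, and Stxbp2 had none.

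Priming factors had 17 peaks. Cadps had 6, including 109 reads 21.0 kb upstream, the promoter peak, and 47 reads in intron 6 at the strict X-box shown above. Unc13a, Munc13-1, had no summit inside, and its highest peak, 188 reads, lay 0.017 kb from the start of Pgls. Unc13b had its highest, 136 reads, 0.14 kb from Stoml2, and Unc13c had 99 reads 35.4 kb upstream of its own start.

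Of the 13 Rab3 and Rab27 genes and their effectors, 11 had a peak in the 50 kb span (67.8% of all genes). At most 10 kb from the gene start, 2 had one (35.7% of all genes), and 3 had a promoter peak (22.6% of all genes). Rab3a, an abundant Rab3 of neurons and endocrine cells, stood beside the highest peak of the whole set, with 695 reads (644 to 749) and a fold of 71.3. Of all 23308 peaks, 0.0901% had as many reads. Its summit lay 34.2 kb beyond Rab3a and 0.425 kb from a start of Mast3, and none of the 8 summits near Rab3a was nearest to the Rab3a start. Rab3b had a single summit, 88 reads in intron 2 at the strict X-box shown above, and Rab27b a single one of 67 reads inside the gene. Rab27a had 52 reads 2 bp before its start and 60 reads in intron 1.

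The effectors varied. Rph3al had the most summits of any member, 14, with 8 inside the gene at 35 to 119 reads, 1 of them on coding exon 4. Mlph had 152 reads (129 to 178) in intron 1, 1.03 kb after the start, besides the low promoter peak. Myrip had 4 summits of 44 to 50 reads in its introns and higher ones, of 109 and 117 reads, beyond its end. Rph3a reached 80 reads upstream. Sytl1 and Sytl2 had highest peaks of 98 and 82 reads, both nearer to other genes.

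Among the 8 active-zone scaffold genes, 7 had a summit within 50 kb, where 67.8% of all genes did (79.4% above 200 kb). They were led by Rimbp2. It had 11 summits, 7 of them inside, and the highest, 250 reads (220 to 283) with a fold of 39.6, lay in intron 1, 76.8 kb after the start. Intron 1 also held a peak of 136 reads. Erc1 had 225 reads (197 to 256) in intron 18, nearest to Wnt5b at 41.1 kb, and Erc2 132 reads in intron 15, nearest to Wnt5a. Bsn (Bassoon) had no summit inside but 132 reads 14.7 kb upstream, nearest to its own start. Rims2 had a single summit of 62 reads in intron 15, and Rims3 reached 54 reads, 0.04 kb from the start of Nfyc.

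Set side by side, the highest peaks of the 51 genes had a median of 132 reads (42 to 695). They lay inside the gene for 19, upstream for 17 and downstream for 15, and 26 of them had the gene's own start as the nearest. For 10 genes the highest peak lay within 1 kb of another gene's start. The 10 members with the most reads were Rab3a, Syt17, Syt3, Doc2b, Rph3al, Snap25, Napa, Nsf, Syt7 and Syt5, and in 4 of these (Doc2b, Snap25, Napa and Syt5) the peak lay in the gene or had its start as the nearest. The Poisson interval of Rab3a did not overlap that of Syt17, the next, while those from Syt17 to Doc2b overlapped from each to the next. The caller's FDR had a median of 3.12% over the 226 peaks and was higher, not lower, at the highest peak of each of these 10 members. The 695-read peak at Rab3a had 25.3% and the Syt5 promoter peak 9.33%, while the 41-read promoter peak of Stx3 had 1.77%.

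**Figure D4:**
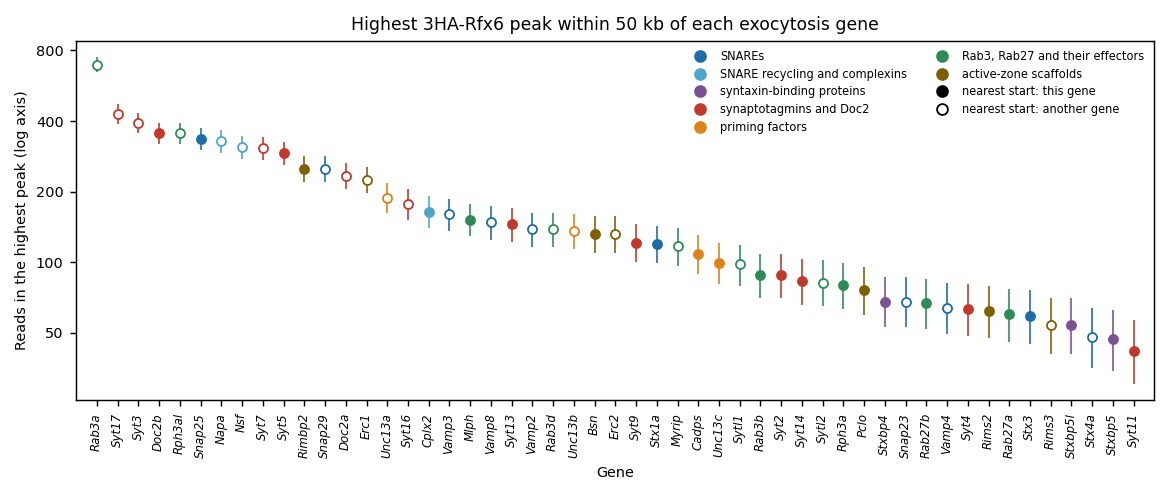
Reads in the highest peak within 50 kb (y axis, logarithmic) for the 51 genes with a peak (x axis, in falling order), coloured by role, with exact 95% Poisson intervals that cover counting error only. Filled points have the gene's own start as the nearest (26 genes), open ones another gene's (25). Rab3a (695 reads) is highest and Syt11 (42) lowest.

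For 7 genes no summit lay within 50 kb. The nearest was 55.3 kb from Cplx1 (182 reads), 60.9 kb from Syt1 (199 reads), 114 kb from Rab3c (218 reads) and from Stxbp2 (91 reads), 216 kb from Exph5 (49 reads), 676 kb from Cadps2 (145 reads) and 752 kb from Rims1 (109 reads). They include Syt1, the fast calcium sensor of synapses, and Rims1, a central scaffold of the active zone, and 4 of the 7 are longer than 200 kb. Just inside the 50 kb limit were Stxbp5l at 41.0 kb and Sytl2 at 33.1 kb. At the 10 kb limit from the start, Stx4a lay inside at 8.54 kb and Vamp8 outside at 11.1 kb.

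Whether the peaks carried the X-box was asked of the 200 bp around each summit. A strict X-box was present in 11 of 226 peaks (4.87%, 2.74 to 8.5), against 6.42% of all 23308 peaks, and in 0 of the 226 windows placed 1 kb to the right, which allows a share of up to 1.33% (3 counts of 226), against 0.253% of all such windows. A near X-box was present in 40 of 226 (17.7%, 13.3 to 23.2), against 19.1% of all peaks, and in 1.77% of the windows to the right, against 1.84% of all such windows. Both intervals for the peaks of exocytosis genes held the share of all peaks. The motifs overlap, since several sites met both definitions.

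The 13 strict sites lay in 11 peaks near 9 genes, Cadps, Rab3a, Rab3b, Syt17, Syt3, Syt4, Syt5, Syt7 and Vamp2. Of these 11 peaks, 7 lay in the member or nearest to its start, and 5 of these 7 were peaks of synaptotagmin genes. The other 4, near Rab3a, Syt3 and Vamp2, lay nearer to other genes. Synaptotagmin and Doc2 genes also held 41 of the 106 peaks nearest to a member's start. Of their 75 peaks within 50 kb, 6 held a strict X-box, where 6.42% of all peaks did, and no difference was tested. The 11 peaks held 40 to 291 reads, and those of Syt5 (291) and Syt7 (172) were the highest. The strict site nearest to the summit had its centre a median of 19.0 bp away, as in all peaks (19.0 bp), and within 25 bp in 8 of 11 peaks (72.7% against 59.5%). At promoter peaks, 1 of 21 held a strict X-box (Syt5) and 3 of 21 a near one (Syt5, Doc2a and Stx1a), against 5.75% and 16.8% of all peaks within 1 kb of a start. Neither form was found at the highest peaks of Rab3a, Syt17, Doc2b, Snap25, Napa, Rimbp2 or Nsf, which says only that these letters were not in the window.

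**Figure D5:**
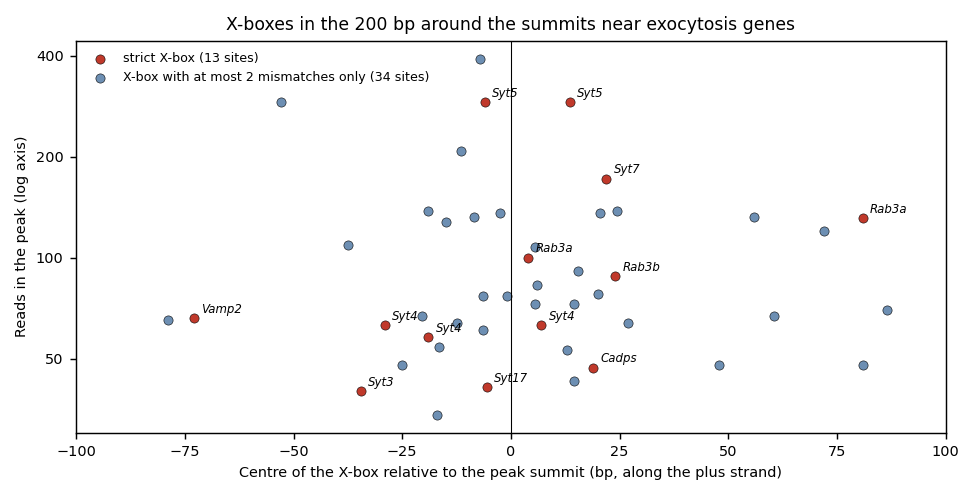
Reads of the peak (y axis, logarithmic) against the distance of each X-box centre from the summit (x axis, bp along the plus strand) for the 13 strict X-boxes (red, with the gene) and 34 sites with at most 2 mismatches only (blue) in peaks of the exocytosis genes. The 2 red points of Syt5 are the highest of the strict sites and lie on both sides of the summit.

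A second list of 50 genes of the same machinery that are not members (other syntaxins, synaptotagmins, exocyst subunits, liprins, synapsins and vesicle proteins) was counted in the same way, with 49 found in the annotation and Vamp7 not analysed here. Of these, 37 (75.5%, 61.9 to 85.4) carried a peak in the 50 kb span, 18 (36.7%, 24.7 to 50.7) at most 10 kb from the start and 13 (26.5%, 16.2 to 40.3) at a promoter, against 67.8%, 35.7% and 22.6% of all genes. Each interval held the share of all genes. Rims4 had 13 summits within 50 kb, Syn3 10 and Ppfia1 9, while the 4 genes on the X chromosome had 0. Such a summit was found for 15176 of all 22367 protein-coding genes and for 14980 of the 21418 autosomal ones. Most genes off the autosomes therefore had none.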

How the data were processed

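The authors mapped 50-base reads to mm9 and called peaks with MACS 1.4.2 against the control (p cutoff 1e-05, effective genome size 1870000000, at most 1 read per position). Per the labels, Bowtie is among the tools used, with no version given. The deposited list holds, for each of 23308 peaks, an unnormalized count of ChIP reads, a fold enrichment (the ratio of the peak to the expected background), a score (minus 10 times the log10 p-value) and an FDR in percent, obtained by the authors' caller from peaks called with ChIP and control exchanged. The control's own values were not analysed here.

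Summits (start plus summit offset, less 1) were compared with GENCODE M1 on NCBIM37 (mm9). All peaks lay within the chromosome lengths of that build. X-boxes were searched on both strands. With 1 library per condition, no test was made: shares carry 95% Wilson intervals and reads exact 95% Poisson intervals, which cover counting error only, and beside a count of 0 the share that 3 counts would make is given. Values are given for members with a promoter peak, the 10 with the highest peaks, those with a strict X-box or the most summits, and those with no summit. The highest peaks of further members, and their next peaks, are given beside these to complete each role. The members and lists were chosen with earlier results of these data known. The alternatives were stricter peak sets, other distances, other rankings and looser X-boxes. Planted motifs and summits in simulated data were used to test the motif search and the assignment to genes. The software was pandas 2.3.3, numpy 2.4.6 and scipy 1.17.1 in Python 3.11.15, with figures from matplotlib 3.10.9.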

Additional observations from a re-analysis of the deposited data

How the results depend on the processing

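Counts of genes depended on which peaks entered. With the 50% of peaks of highest score, 40 of the 58 genes had a summit within 50 kb (51.1% of all genes), 16 had one within 10 kb of the start (21.6%) and 11 within 1 kb of a transcript start (13.3%), and 114 distinct peaks remained. With a fold enrichment of at least 10, these numbers were 37 (45.6%), 13 (17.2%), 8 (9.87%) and 85. An FDR of at most 1% held 10 peaks of the whole list, and the numbers were 0, 0, 0 and 0. Among member peaks the FDR ran from 1.76% to 25.3%, the latter at the peak with the most reads. This cut therefore did not keep the higher member peaks. Distance mattered as follows. Inside the gene, 33 genes (31.3% of all genes) and 73 peaks were counted, and a distance of 20 kb gave 45 genes (55.2%) and 138 peaks. A distance of 100 kb gave 53 genes (76.7%), and a summit within 50 kb of the start was found for 45 genes (62.4%). Any base of the peak in place of its summit gave 51, 26 and 22 genes under the 3 rules. The share of peaks with an X-box was 17.7% with at most 2 mismatches (19.1% of all peaks), 50.9% with at most 3 (55.0%) and 3.98% for strict X-boxes in a 100-bp window (5.05%), and 18.1% of the windows to the right matched with at most 3. Ranked by fold enrichment, the highest peaks had a median of 109 reads and 13 genes had another highest peak, among them Nsf (71 reads) and Doc2b (247 reads). Ranked by score, the median was 132. Among summits inside the gene or within 10 kb of it, it was 87 over 43 genes. The next checks were chosen after seeing the data. The same stricter sets left 30, 26 and 0 of the other exocytosis genes with a summit within 50 kb in place of 37. Leaving out the X chromosome left 37. Of the member peaks with a fold of at least 10, 27.1% lay within 1 kb of a start, in place of 24.3% of all member peaks. The share over all peaks of such fold was not computed. The effect of the shallower control on fold enrichments and FDR was not tested. No paired analysis was possible because each condition had 1 library, and for the same reason no replicate could be left out.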
